A study of Scomber scombrus with 32 samples.

Results

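The genes pax7a (gene identifier 134003855), heyl (133996655) and her13 (133980110) are 3 of the 24189 genes counted in muscle cell lines of the Atlantic mackerel, Scomber scombrus. They were picked by identifier as progenitor and Notch target genes, with their values in these libraries already known. Their levels are therefore given as a description, without a test. Tests are reported for other genes, in lists that were also chosen with earlier results of these data known.

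In vertebrate muscle, satellite cells lie beneath the sheath of the fibre as a reserve of stem cells, and the paired box transcription factor Pax7 marks them in mouse and fish. Notch signalling is known from mouse as one of the pathways that hold satellite cells in the undifferentiated state. A Delta or Jagged ligand on one cell binds a Notch receptor on its neighbour, the receptor is cleaved, and its inner part joins Rbpj and Mastermind proteins in the nucleus to switch on repressors of the Hes, Her and Hey families. heyl encodes a Hey family repressor, and in mouse HeyL is used as a readout of Notch activity in satellite cells. her13 encodes a Her family repressor.

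Poly(A) RNA was sequenced from 32 libraries in 10 groups. Mack1 was sampled at p27, before immortalization, and at p77, after it, each in 4 culture states called proliferation, lipid loading, serum starvation and serum reduction, with 3 libraries a group. Mack2 was sampled at p2, before immortalization, and at p180, after it, as proliferation cultures only, with 4 libraries a group. Proliferation cultures grew in L-15 medium with 20% fetal bovine serum, 1 ng/mL FGF2, HEPES buffer and antibiotic, and their density is not stated. The other states began at confluence: feeding then stopped in serum starvation, serum fell to 2.5% in serum reduction, and lipid loading kept the growth medium with 10 µg/mL insulin, 0.5 mM IBMX, 0.25 µM dexamethasone and 10 µL/mL of a lipid mixture. Confluence therefore came with each of these states and cannot be told apart from the medium. The replicates are experimental replicates of 1 line and stage, so errors measure the spread between libraries and not between fish. The labels put every Mack1 library in batch 1 and every Mack2 library in batch 2, apart from Mack2 p2 replicate 4 in batch 1, so line and batch cannot be told apart and levels are set side by side between the lines without a comparison.

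The counts of a library over all genes summed to between 16904618 and 32012966. Levels are given as CPM, the usual unit in which a count is divided by its library's total, scaled for library composition, which is not a value per gene length, so levels are compared across groups and not between genes. A fold between groups is the ratio of the group mean CPM. Where a group holds 1 to 3 counts, it is the ratio of the summed counts over the summed library totals instead, with a counting interval where all libraries are used. A log2 value with its SE is the fitted change of edgeR's model. Where a group holds no count, the ratio is a bound computed from a floor of 3 counts over that group. The bound leaves out the counting error of the other group, so it is less firm where that group holds few counts. In bulk RNA, fewer cells that express a gene and less of its RNA per cell cannot be told apart.

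The 3 genes followed different courses. pax7a was low in Mack1 at p27, was at or next to 0 in all 4 states at p77, and was several-fold higher at p180 than at p2 in Mack2. heyl was highest in the proliferation cultures of Mack1 and was at 0 in starvation at both stages. her13 was next to 0 in the proliferation cultures of Mack1 and higher in every confluent state at both stages. Across the 8 Mack1 groups the group mean log2 levels of heyl and her13 correlated at r = -0.94, against 0.09 for pax7a with heyl and 0.12 for pax7a with her13. These values describe 8 groups chosen with the outcome known. The groups of a stage share their passage, and those of a state their medium.

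**Figure D1:**
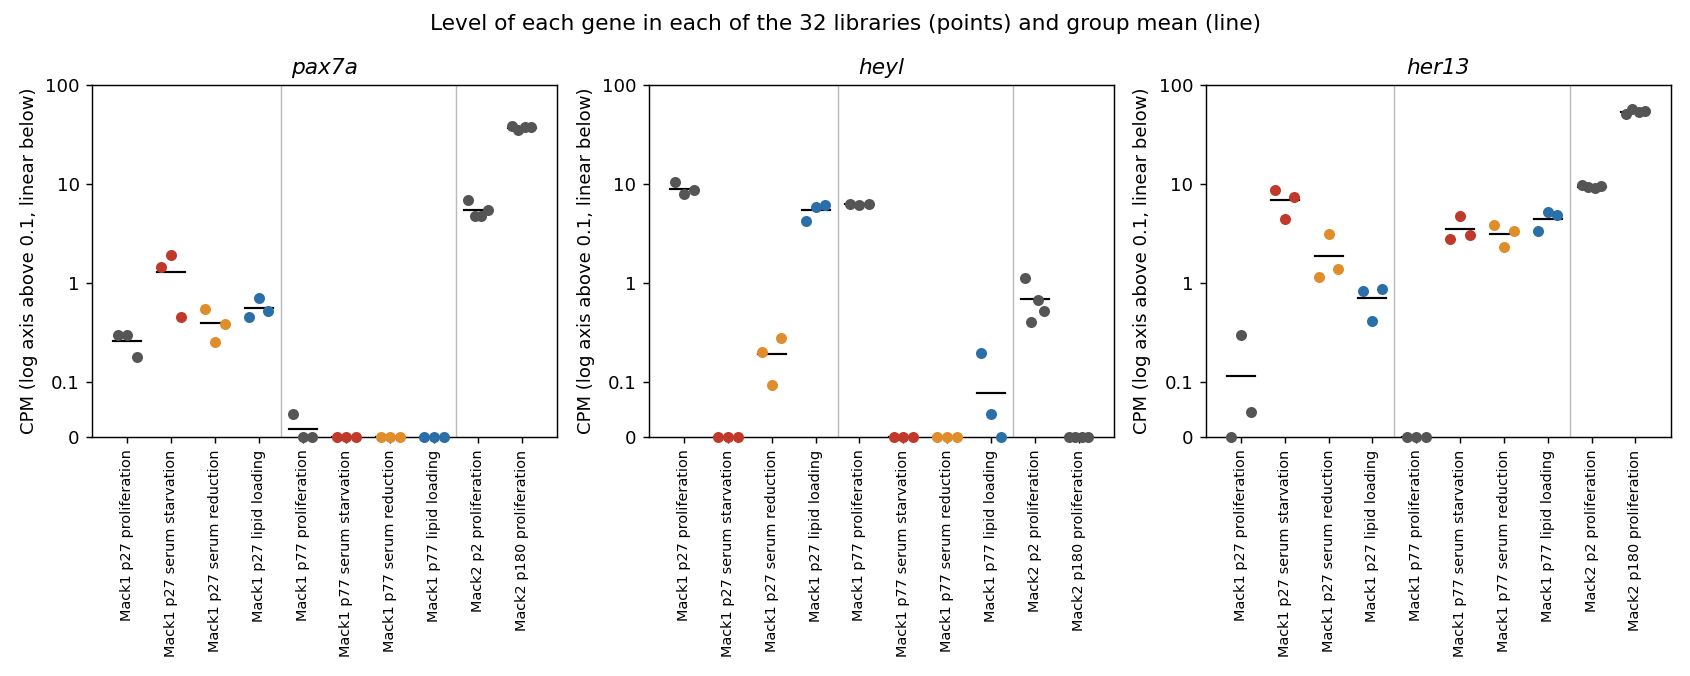
Level of pax7a, heyl and her13 in each library, in CPM on an axis that is logarithmic above 0.1 and linear below it. Each point is 1 of the 32 libraries, each short line is a group mean, colours mark the culture state (grey proliferation, red serum starvation, orange serum reduction, blue lipid loading), and grey rules separate Mack1 p27, Mack1 p77 and Mack2. pax7a lies at 0 in 11 of 12 Mack1 p77 libraries, while heyl and her13 run in opposite directions between proliferation and starvation.

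pax7a, the satellite cell marker, gave 7, 7 and 4 counts in the 3 Mack1 p27 proliferation libraries, a mean of 0.258 ± 0.0687 CPM (SD, n = 3). In p27 starvation it gave 42, 44 and 13 counts, a mean of 1.28 ± 0.754 CPM. Serum reduction gave 16, 8 and 11 counts (0.392 ± 0.143 CPM) and lipid loading 11, 17 and 12 counts (0.559 ± 0.132 CPM). The starvation libraries were above all proliferation libraries, by 4.98-fold in the means (log2 2.32 ± 0.81, SE), although replicate 3 of starvation, at 0.456 CPM, lay inside the range of the serum reduction group. The lipid loading libraries were also above the proliferation libraries, by 2.17-fold, with a large error (log2 1.08 ± 0.82, SE). The serum reduction group overlapped proliferation, at 1.52 times its mean (0.61 ± 0.82). In the order of the p27 levels, starvation overlapped lipid loading, lipid loading overlapped serum reduction, and serum reduction overlapped proliferation.

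At p77 the whole of Mack1 held 1 pax7a count, in proliferation replicate 1. The other 11 libraries had 0, which allows a group mean of at most 0.0356 to 0.0419 CPM at the floor of 3 counts per group. Against the same state at p27, pax7a was at least 32.2-fold lower in starvation, at least 15.7-fold lower in lipid loading and at least 9.35-fold lower in serum reduction. In proliferation the single count gave a ratio of summed counts of 19.6-fold lower, with a 95% counting interval of 3.09 to 815. With 1 library left out at a time, the log2 ratio was -4.49 to -2.14 in proliferation, the last of these a bound without p77 replicate 1, which held the count, and -5.41 to -4.36 in starvation, from bounds without p27 replicate 3 and without p77 replicate 2. The p27 and p77 libraries did not overlap in any state. Within p77, both groups of every state comparison were at or under the floor, so a response of pax7a was not detectable at this depth.

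In Mack2, pax7a gave 141, 70, 70 and 94 counts at p2, a mean of 5.46 ± 1.05 CPM (SD, n = 4), with replicate 1 the highest. At p180 it gave 680, 635, 690 and 917 counts, a mean of 37 ± 1.44 CPM. The groups did not overlap, and p180 was 6.78-fold higher (log2 2.71 ± 0.09, SE). The log2 of the ratio of means was 2.76 with and without the p2 library of the other batch. The change with stage thus had opposite signs in Mack1 and Mack2, which also differ in passage and batch, and these cannot be told apart.

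The low pax7a counts at p77 did not extend to its neighbours on the chromosome. In the RefSeq annotation of the assembly fScoSco1.1, pax7a lies between mrps16, which encodes a mitochondrial ribosomal protein, and park7, which encodes a redox-sensitive chaperone. mrps16 averaged 18.7 CPM and park7 13.8 CPM in p77 proliferation, against 19.1 and 18.4 CPM at p27. In starvation the pair averaged 21.7 and 38.8 CPM at p77, against 28.3 and 37.6 CPM at p27.

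heyl gave 248, 185 and 193 counts in the p27 proliferation libraries, a mean of 8.99 ± 1.3 CPM, its highest group. Starvation at p27 gave 0 counts in all 3 libraries, at least 240-fold lower. Serum reduction gave 6, 3 and 8 counts (0.192 ± 0.0918 CPM), 46.9-fold lower (log2 -5.51 ± 0.47, SE). Lipid loading kept most of the signal: 102, 140 and 143 counts, or 5.4 ± 1.05 CPM, 1.67-fold below proliferation (log2 -0.75 ± 0.35) and 28.1-fold above serum reduction. No library of these states overlapped proliferation at p27.

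At p77, heyl in proliferation was near its p27 level, with 154, 164 and 150 counts (6.2 ± 0.131 CPM). It was 1.45-fold lower (log2 -0.53 ± 0.35, SE) without overlap of the libraries. Starvation and serum reduction held 0 counts in all 6 libraries, at least 156-fold and at least 148-fold lower. Lipid loading gave 6, 1 and 0 counts (0.0788 ± 0.103 CPM), 78.7-fold below proliferation (log2 -6.17 ± 0.53). Replicate 1 held 6 of those 7 counts, and without it, on the 1 count left, the log2 ratio of summed counts was -8.38. In lipid loading the p77 libraries were 68.5-fold below those of p27 (log2 -5.95 ± 0.53), and without p77 replicate 1 the log2 ratio of summed counts was -8.18. In serum reduction the p77 group was at least 4.58-fold lower by the floor, against only 17 counts at p27. In starvation both stages were at 0 and gave no ratio.

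In Mack2, heyl gave 23, 6, 10 and 9 counts at p2 (0.683 ± 0.32 CPM) and 0 in the 4 libraries at p180, at least 18-fold lower. heyl was below the low-count filter of the Mack2 fit, so this ratio has no fitted value. Ordered by level, heyl in Mack1 p77 proliferation overlapped p27 lipid loading, p27 serum reduction overlapped p77 lipid loading, and the lowest 4 groups were at 0. Its neighbour zbtb8b, a zinc finger gene, stayed between 5.54 and 11.2 CPM in all 10 group means.

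her13 gave 0, 7 and 1 counts in the p27 proliferation libraries, a mean of 0.115 ± 0.162 CPM. In p27 starvation it gave 252, 101 and 209 counts (6.84 ± 2.21 CPM), in serum reduction 34, 98 and 40 (1.88 ± 1.07 CPM), and in lipid loading 20, 10 and 20 (0.701 ± 0.247 CPM). The 3 groups were separate from proliferation and from each other. They were 59.6-fold (log2 5.87 ± 0.61, SE), 16.4-fold (4 ± 0.64) and 6.1-fold (2.54 ± 0.71) above proliferation. Those ratios rest on p27 proliferation replicate 2, which held 7 of the 8 counts of its group: without it, on 1 count, the log2 ratios of summed counts were 8.34, 6.46 and 5.01.

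At p77, her13 gave 0 counts in all 3 proliferation libraries. Starvation gave 63, 128 and 78 counts (3.51 ± 1.04 CPM), serum reduction 109, 50 and 71 (3.15 ± 0.786 CPM), and lipid loading 102, 126 and 143 (4.46 ± 0.988 CPM). They were at least 88.4-fold, 79.4-fold and 112-fold above proliferation. Unlike at p27, the 3 confluent groups overlapped each other. Against p27, lipid loading at p77 was 6.36-fold higher (log2 2.66 ± 0.48) without overlap, whereas starvation was 1.95-fold lower, serum reduction 1.68-fold higher and proliferation at least 2.89-fold lower, each with overlapping libraries. The bound in proliferation rests on p27 replicate 2 with its 7 counts: without it both groups were under the floor and gave no ratio, and without any other 1 library the log2 bound was -2.12 to -0.89, from without p27 replicate 1 to without p77 replicate 2.

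In Mack2, her13 gave 197, 138, 136 and 163 counts at p2 (9.4 ± 0.237 CPM, n = 4). At p180 it gave 902, 1040, 979 and 1329 counts (53.9 ± 2.74 CPM). The groups did not overlap, and p180 was 5.73-fold higher (log2 2.49 ± 0.06), and the log2 of the ratio of means was 2.52 with and without the p2 library of the other batch. The highest Mack1 library, in p27 starvation, stood at 8.77 CPM, while the Mack1 libraries of the same state as Mack2, proliferation, held 0 to 0.3 CPM. The gene next to her13, her8.2, another Her family gene, had no count in any library.

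Most genes tested passed in the comparisons with proliferation and in Mack2, and fewer did between the stages of Mack1. Against proliferation at p27, all 3 members had separate libraries in starvation and in lipid loading and 2 of 3 in serum reduction, where 64.3%, 64.8% and 61.7% of the 15683 genes tested passed an adjusted p of 0.05 (edgeR's quasi-likelihood test, Benjamini-Hochberg). At p77 2 of 3 were separate in each state, against 65.7% of genes in lipid loading, 68.8% in serum reduction and 66.9% in starvation. Between the stages 2 of 3 were separate in proliferation, 1 of 3 in starvation, 2 of 3 in serum reduction and 3 of 3 in lipid loading, where 25.6%, 21.3%, 30.9% and 34.3% of genes passed. In Mack2 all 3 were separate and 77.7% of 13805 genes passed. Members were counted by separate libraries and all genes by the test, which are unlike measures. The share of all genes with separate libraries was not computed. The members were chosen with these contrasts known, so nothing is read from their counts.

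The rest of the Notch pathway was taken as a list of 115 symbols sorted by role, of which 76 were matched, heyl and her13 among them. Of the other 74, 63 were tested in Mack1 and 58 in Mack2. The list was chosen with earlier results of these data known. In p27 starvation 26 rose, 17 fell and 20 did not pass, a share of 68.3% called and a median log2 change of 0.19, while 34.3% of all genes tested rose and 30% fell. In p27 serum reduction 22 rose and 19 fell (32.4% and 29.3% of all genes), and in lipid loading 25 rose and 8 fell (34.3% and 30.4%). At p77 28 rose and 20 fell in starvation (35.5% and 31.5% of all genes), 23 rose and 23 fell in serum reduction (36.8% and 31.9%), and 27 rose and 15 fell in lipid loading (35.2% and 30.6%).

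Between p77 and p27, 13 genes of the list were higher and 11 lower in proliferation, with 10.5% and 15.1% of all genes. In starvation 10 were higher and 10 lower (11.1% and 10.2% of all genes), in serum reduction 11 and 17 (14.7% and 16.1%), and in lipid loading 11 and 19 (18.6% and 15.7%). The proliferation count was 15 without p77 replicate 2, and the starvation count was 13 without p27 replicate 1 and 12 without p77 replicate 1. In Mack2 20 rose and 29 fell, against 38.6% and 39.1% of all genes. The share of the list called was between 52.4% and 76.2% in the comparisons with proliferation, where 61.7% to 68.8% of all genes passed, 84.5% in Mack2, and between 31.7% and 47.6% between the stages of Mack1, where 21.3% to 34.3% of all genes passed.

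**Figure D2:**
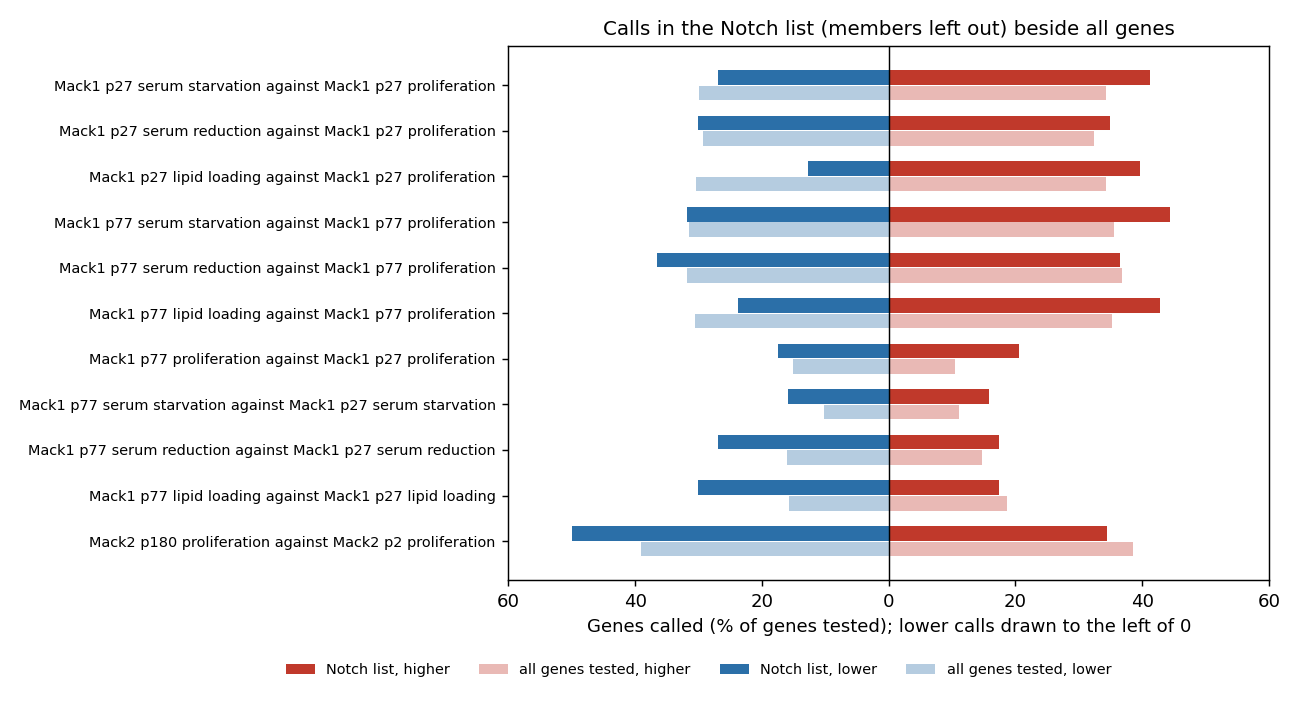
Share of the Notch list called higher (right, red) and lower (left, blue) in each of 11 comparisons, in percent of the genes tested, with the share over all genes tested in the paler bar beneath. heyl, her13 and pax7a are left out of the Notch list. In p27 lipid loading 25 genes rose and 8 fell, and in Mack2 29 fell and 20 rose.

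Among the ligands, which the neighbouring cell presents, jag1b fell and the Delta genes dll4 and dla rose in every confluent state of Mack1. Of the 6 ligands tested, 3 did not pass in any comparison with proliferation at p27. jag1b (Jagged) averaged 244 ± 17.1 CPM in p27 proliferation and fell to 4.75 ± 1.41 in starvation (log2 -5.67 ± 0.17, adjusted p = 1.28e-20), 43.6 ± 4.66 in serum reduction (-2.47) and 64.0 ± 8.61 in lipid loading (-1.95). At p77 it fell from 261 ± 9.74 CPM to 9.41, 18.1 and 15.8 CPM. dll4 (Delta-like) rose from 1 count in the p27 proliferation group to 18.1 ± 1.69 CPM under starvation, 3.67 ± 0.0412 under serum reduction and 2.1 ± 0.529 with lipid loading, and at p77 from 0.0765 ± 0.074 CPM to 21.4, 9.63 and 2.25 CPM. dla (Delta) had no count in the 6 proliferation libraries and rose in every confluent state, by at least 105-fold in p27 starvation and at least 119-fold in p77 serum reduction. All of these passed the test.

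Other ligands had a response called at p77 only, and the difference between the stages was not tested. jag2b rose at p77 by log2 2.98 ± 0.31 under serum reduction, 1.59 ± 0.31 under starvation and 1.49 ± 0.31 with lipid loading, from 0.851 ± 0.513 CPM in proliferation. At p27 it stood at 4.14 ± 0.089 CPM in proliferation and between 3.76 and 4.23 CPM in the other states, and no difference passed. dld rose at p77 to 1.58 ± 0.403 CPM in serum reduction and 0.556 ± 0.0773 in starvation, from 0 counts in proliferation, at least 39.9-fold and 14-fold higher. In p77 lipid loading dld averaged 0.167 ± 0.0862 CPM, at least 4.21-fold higher (adjusted p = 0.0208 by edgeR), and the call was lost without proliferation replicate 1 or 2. dlc averaged 0.426 ± 0.428 CPM there, at least 10.7-fold higher (adjusted p = 0.0197), and the call was lost under DESeq2 (adjusted p = 0.106), without lipid loading replicate 3 and without any 1 proliferation library. dlc never held more than 25 counts in a library and dlb never more than 3.

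In Mack2, where all cultures were labelled as proliferation, each ligand that could be tested fell from p2 to p180. jag1b fell from 173 ± 7.22 to 105 ± 3.9 CPM (log2 -0.75 ± 0.04), jag2b from 1.19 ± 0.506 to 0.0276 CPM and dll4 from 1.3 ± 0.459 to 0.0238 CPM. Each of the last 2 held 2 counts at p180, which gave 46.9-fold lower for jag2b (95% counting interval 12.6 to 394) and 51.6-fold lower for dll4 (13.9 to 433). heyl fell alongside them, from 0.683 CPM to 0, while her13 and pax7a were higher.

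**Figure D3:**
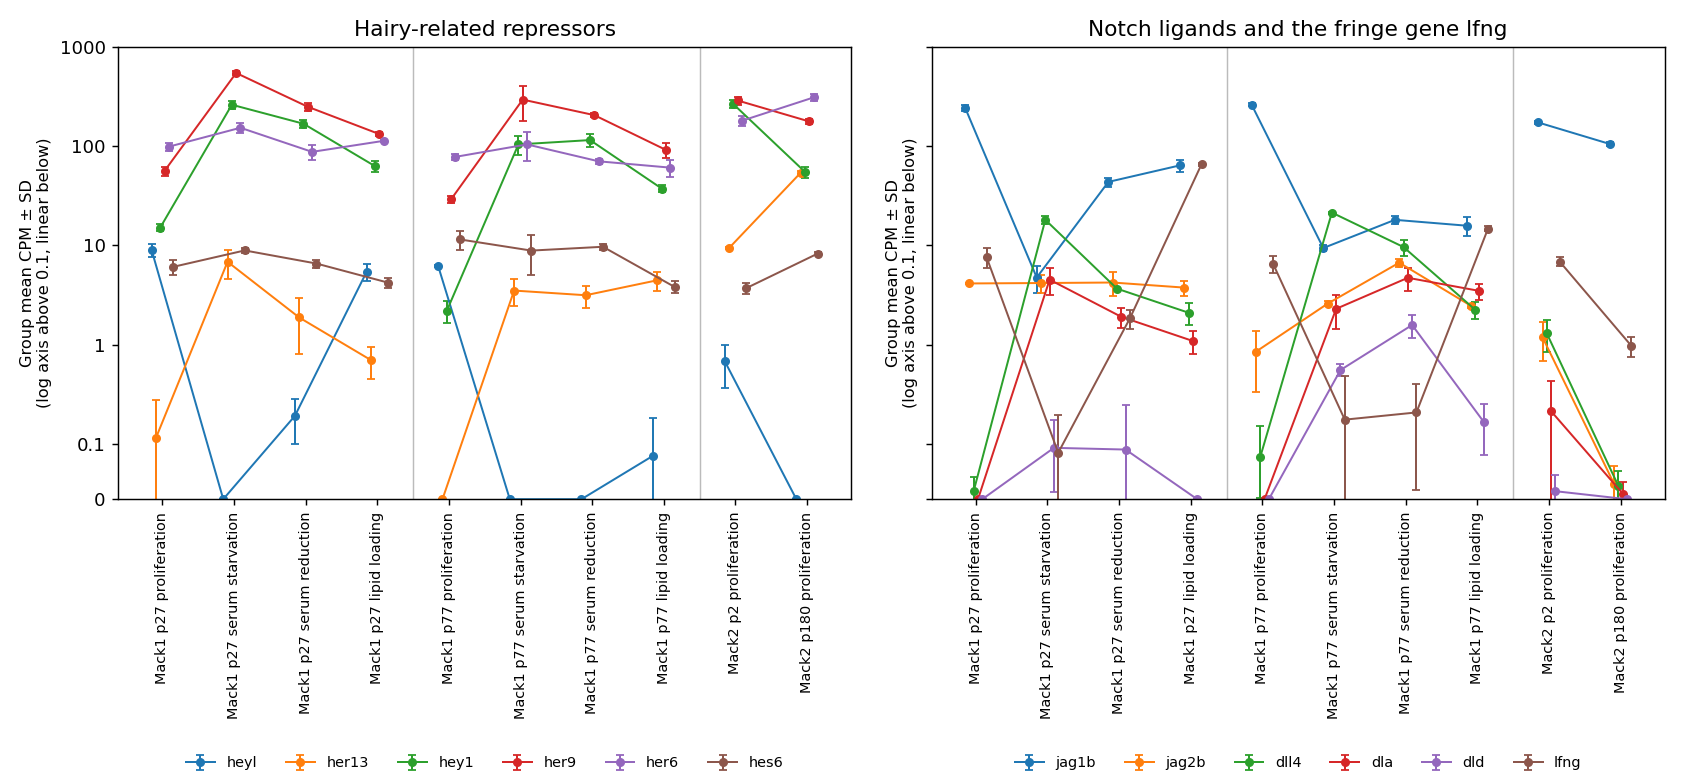
Group mean CPM with SD (n = 3 for Mack1 and 4 for Mack2, axis logarithmic above 0.1 and linear below) of 6 Hes, Her and Hey family genes on the left and of 5 Notch ligands with the fringe gene lfng on the right. Lines join the groups of 1 line and stage. hey1 and her9 rise with her13 from proliferation to starvation while heyl falls to 0, and jag1b falls while dll4 and dla rise.

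The receptor genes changed far less than the ligands. notch2 fell from 44.1 ± 6.1 to 19.8 ± 2.83 CPM in p27 starvation (log2 -1.12 ± 0.16) and from 57.4 ± 7.48 to 26.5 ± 1.19 in p77 serum reduction (-1.09 ± 0.16). notch3 rose from 235 ± 23.9 to 378 ± 6.67 CPM in p27 lipid loading (0.67 ± 0.12). notch1a rose by 0.30 ± 0.09 in p77 starvation. No called change of the 3 receptor genes in any of the 11 comparisons was larger in size than that of notch2 in p27 starvation.

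Genes that act on the receptor on its way to the surface included lfng, the Fringe sugar transferase that sets which ligands a receptor answers. Like heyl, it was near 0 in starvation and present in lipid loading. lfng fell from 7.61 ± 1.71 CPM in p27 proliferation to 0.0842 ± 0.11 in starvation (log2 -6.34 ± 0.54) and 1.84 ± 0.384 in serum reduction (-2.02 ± 0.33), and rose to 65.6 ± 2.77 in lipid loading (3.09 ± 0.30). At p77 it fell by 5.29 and 4.90 in starvation and serum reduction and rose by 1.17 ± 0.29 in lipid loading. Unlike heyl in p77 lipid loading, it was well above its proliferation level there, at 14.8 ± 0.818 CPM. pofut1, which adds the fucose that Fringe extends, fell in all 6 comparisons with proliferation, by between 0.57 and 2.24 on the log2 scale. The proteases adam10a and adam17a, which make the first cut after ligand binding, fell in all 6 as well. adam17a fell by between 1.07 and 1.56, from 152 ± 4.84 CPM in p27 proliferation, and adam10a by between 0.52 and 1.07.

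Most inhibitors of the pathway rose in the confluent states of Mack1. Of the 12 tested, 10 rose and none fell in p27 starvation and in p27 serum reduction, and 8 rose and 1 fell in p27 lipid loading. At p77 10 rose and 1 fell in starvation and in serum reduction, and 9 rose in lipid loading. Of all genes tested, 32.4% to 36.8% rose and 29.3% to 31.9% fell. nrarpa averaged 20.8 CPM in p77 proliferation, against 7.69 in starvation and 7.46 in serum reduction. At p27 it averaged 19.6 CPM in proliferation and 42.6 in lipid loading. numbl, related to the Notch antagonist Numb, rose from 0.603 ± 0.0985 CPM in p27 proliferation to 7.11 ± 1.64 in serum reduction (log2 3.56 ± 0.25), and from 1.1 ± 0.364 to 28.1 ± 4.63 at p77 (4.71 ± 0.23). fbxw7, part of the ubiquitin ligase that removes the active receptor fragment, rose in all 6 comparisons by between 0.60 and 2.36. The E3 ligase gene dtx2 rose in all 6 by between 1.06 and 2.76. In Mack2, of 11 inhibitors tested, 3 were higher at p180, 6 were lower and 2 did not pass. Among the lower ones, the log2 change was -2.49 ± 0.09 for numbl, -1.40 ± 0.05 for fbxw7 and -0.43 ± 0.07 for dtx2. By contrast, dlk2 averaged 85.8 ± 6.8 CPM at p180 against 10.1 ± 0.836 CPM at p2.

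In the nucleus, maml1 (Mastermind) fell in all 6 comparisons by between 0.48 and 1.19, and rose by 1.51 ± 0.04 in Mack2 p180, from 33.8 ± 1.47 to 98.1 ± 2.05 CPM. rbpjb, which encodes the DNA-binding partner of the receptor fragment, rose in lipid loading by 0.79 ± 0.16 at p27 and 0.73 ± 0.16 at p77, and in Mack2 by 0.59 ± 0.07.

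Of the 10 Hes, Her and Hey family genes besides heyl and her13, 3 had no count in any library and 3 more never passed 30 counts in one, so 4 were tested. hey1, of the same subfamily as heyl, was, like her13, higher in every confluent state of Mack1 than in proliferation. It rose from 15.1 ± 1.21 CPM in p27 proliferation to 261 ± 22.8 in starvation (log2 4.14 ± 0.15, adjusted p = 1.23e-18), 168 ± 14.2 in serum reduction and 62.7 ± 7.69 in lipid loading. At p77 it rose from 2.19 ± 0.536 CPM to 104 ± 22.1, 115 ± 16.8 and 37.4 ± 2.95 CPM. her9 rose with it in all 6 comparisons, by between 1.21 and 3.35, from 56.2 ± 5.99 CPM to 545 ± 21.9 CPM in p27 starvation. heyl and hey1 therefore lay on opposite sides of their proliferation level in all 6 comparisons.

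Between the stages in lipid loading, and in Mack2, hey1 and her9 parted from her13. hey1 was lower at p77 in all 4 states, by 2.77 ± 0.19 in proliferation, 1.34 ± 0.13 in starvation, 0.74 ± 0.14 in lipid loading and 0.52 ± 0.13 in serum reduction. In lipid loading her9 averaged 132 ± 6.38 CPM at p27 and 91.5 ± 14.8 CPM at p77, whereas her13 was 6.36-fold higher at p77. The her13 level was also lower at p77 in proliferation and starvation and was higher in serum reduction, each with overlapping libraries. In Mack2 hey1 fell from 265 ± 24.1 to 55.0 ± 6.99 CPM (log2 -2.30 ± 0.08) and her9 from 288 ± 25.8 to 177 ± 10.8 CPM (-0.72 ± 0.06). her6 rose in Mack2 from 180 ± 20.2 to 309 ± 23.5 CPM (0.76 ± 0.07) and hes6 from 3.71 ± 0.498 to 8.29 ± 0.303 CPM (1.13 ± 0.11), so of the 4 tested family genes 2 rose, as her13 did, and 2 fell. In Mack1, her6 rose in p27 starvation by 0.67 ± 0.17, and its changes of -0.15 and 0.18 in serum reduction and lipid loading at p27 did not pass.

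The satellite cell list held 52 matched symbols of 74, pax7a among them, and 44 of the other 51 were tested in Mack1. In p27 starvation 24 rose and 11 fell, in serum reduction 24 and 12, and in lipid loading 26 and 9. At p77 the counts were 24 and 11, 21 and 13, and 24 and 10. In these comparisons 32.4% to 36.8% of all genes tested rose and 29.3% to 31.9% fell. The share of the list called was 77.3% to 81.8%, against 61.7% to 68.8% of all genes. Between the stages of Mack1 it was 36.4% to 59.1%, against 21.3% to 34.3%. The list was chosen with earlier results known and holds both stem cell and differentiation genes. In Mack2 15 rose, 21 fell and all 36 tested passed, where 77.7% of all genes passed.

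Against pax7a, the related factor pax3b was abundant in Mack1. It averaged 112 ± 4.62 CPM in p27 proliferation and 141 ± 10.4 at p77, and fell in starvation by 0.66 ± 0.12 at p27 and 1.11 ± 0.12 at p77 and in serum reduction by 1.05 ± 0.12 and 1.64 ± 0.12. pax3a was higher at p77 than at p27 in starvation, at 1.87 ± 0.439 against 0.0728 ± 0.0303 CPM (log2 4.56 ± 0.84, SE), where pax7a was at 0 and at 1.28 CPM. Of the defining markers of the labelled cell type, muscle stem cell, pax7a was thus at or next to 0 at p77 while pax3b was present. Another of these markers, myf5, was at 0 in Mack1 proliferation at both stages. In the confluent states myf5 averaged 1.69 to 3.72 CPM at p77, against 0.122 to 1.53 CPM at p27. The listed symbol pax7b matched no gene. myod1, the factor that commits cells to muscle, stood between 19.8 and 66.1 CPM in all Mack1 groups and rose in Mack2 from 45.3 ± 1.4 to 110 ± 6.88 CPM (1.25 ± 0.05), where pax7a was also higher.

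The differentiation gene myog rose in the confluent states of Mack1, where her13 was also higher than in proliferation. myog, which drives fusion and terminal differentiation, averaged 1.85 ± 0.232 CPM in p27 proliferation, 397 ± 6.47 in starvation (log2 7.77 ± 0.25), 198 ± 6.1 in serum reduction and 31.6 ± 2.46 in lipid loading, the same order as her13 at p27. At p77 the orders differed: myog averaged 304 ± 118, 221 ± 4.81 and 79 ± 11 CPM in those states, while her13 was highest in lipid loading, with overlapping libraries. cdh15 (M-cadherin), a surface protein of satellite cells and myoblasts, rose from 92.3 ± 5.61 to 1150 ± 39.4 CPM in starvation (3.67 ± 0.07). itgb1a, an integrin subunit, fell from 579 ± 19.3 to 60.1 ± 0.966 CPM in starvation (-3.24 ± 0.09), and the growth factor receptor gene fgfr1a from 146 ± 13.4 to 22.7 ± 4.15 CPM (-2.65 ± 0.12). In Mack2 p180, where her13 was 5.73-fold higher, myog was lower (-1.49 ± 0.05), so the pair did not move together there.

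The summed level of 19 muscle fibre genes, set beside the members, was higher in every confluent state of Mack1, where her13 was higher and heyl lower, and lower at p180 in Mack2, where her13 and pax7a were higher. It lay between 251 and 343 CPM in p27 proliferation and between 30.9 and 49.6 CPM at p77. It was 33300 to 35800 CPM in p27 starvation, 31900 to 42900 in serum reduction and 8500 to 10300 in lipid loading, the state in which heyl kept most of its level at p27. At p77 it was 38300 to 45600, 56300 to 59000 and 26100 to 30800 CPM, the last of these where heyl held 7 counts in all. All 19 genes rose in all 6 comparisons. In Mack2 the sum was 23000 to 26800 CPM at p2, which are labelled as proliferation cultures, and 8130 to 10300 at p180. There 15 of the 19 genes were lower at p180, acta1a was higher, and neb, ttn.1 and ttn.2 did not pass. acta1a rose from 1640 to 2400 CPM, and acta1b fell from 5520 to 6.64 CPM, a large part of the fall in the sum. The part of differentiated cells in the levels of the members was not tested.

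Markers of other cell types also moved. Of 5 endothelial genes, kdr was at 0 in all libraries and cdh5 in 6 of the 10 groups, and the sum was 12.4 to 14.4 CPM in p27 proliferation and 29.5 to 32.3 CPM in p77 proliferation against at most 7.02 CPM in every other group, tie1 and kdrl making up most of it. These 2 groups are also the 2 where heyl was highest. In p27 lipid loading, where heyl averaged 5.4 CPM, the endothelial sum was 1.11 to 1.5 CPM. The endothelial gene vwf went the other way from the sum, at 0.014 CPM in p27 proliferation and 1.45 CPM in p27 starvation. The part of endothelial cells in the heyl level was not tested. Of 8 fibroblast genes, thy1 was at 0 in 9 of the 10 groups, and the sum was 23500 to 24500 CPM in p27 lipid loading and 16600 to 19600 in p27 serum reduction, where heyl was near 0, against 5640 to 6090 in p27 proliferation. The collagen genes col1a1a and col1a2 made up most of it, at 9710 and 13600 CPM in p27 lipid loading, while pdgfrb averaged 153 CPM there against 209 in proliferation and prrx1b 35.2 against 61.5. The sum of 8 mural genes was 1870 to 1910 CPM in p27 proliferation, 2260 to 2430 in p27 lipid loading and 873 to 886 in p77 proliferation. In Mack2 it fell from 10700 to 11600 at p2 to 3060 to 3210 at p180. tagln made up most of it, at 1680 and 714 CPM in p27 and p77 proliferation and 7380 and 2790 at p2 and p180. acta2 fell in Mack2 from 3770 to 135 CPM. cspg4 went the other way there, from 45.7 to 125 CPM, and stood at 146 and 132 CPM in p27 and p77 proliferation. The sum of 12 neural crest and pigment genes was 32 to 37.1 CPM in p27 proliferation and 57.4 to 60.3 at p77, against at most 24.7 CPM elsewhere. kitb made up most of it in proliferation, at 21.9 CPM at p27 and 43.6 at p77, while csf1ra stood at 12.2 and 8.04. In p77 proliferation 4 of the genes, kita, sox10, tyr and tyrp1b, were at 0. The pigment gene dct went the other way, at 0.0123 CPM in p77 proliferation and 9.25 in p77 lipid loading. Blood and neural lists were at most 0.581 and 0.222 CPM in any library.

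Likeness was measured as the correlation of group mean log2 levels over the 8 Mack1 groups, among 10451 named genes that reached 1 CPM in a group mean. heyl was followed most closely by lpp (r = 0.9834), which encodes a focal adhesion protein, and by inhbb (0.9823), a subunit of activin, then dctn4, cd63 and arf3a. Over all 10 groups r was 0.6783 for lpp, 0.7109 for inhbb, 0.6056 for dctn4, 0.9754 for cd63 and 0.8426 for arf3a. inhbb averaged 9.76 CPM in p27 and 10.5 CPM in p77 proliferation, 5.92 in p27 lipid loading and at most 0.583 in the other 5 Mack1 groups, in which heyl was at 0.192 CPM or less. In Mack2 p180, where heyl was at 0, inhbb averaged 9.59 CPM. her13 was followed by kiaa1143 (0.9825), cdh15 (0.9795), grinab and cul4a among others. Over all 10 groups these stood at 0.5026, 0.854, 0.723 and 0.6836. High values over the 8 Mack1 groups were common: 3.76% of the genes correlated above 0.9 with heyl and 4.07% with her13.

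For pax7a the share above 0.9 was 0.0957%, and the closest genes were lbh (0.9684), znhit1 (0.9431), gps2 (0.9423), ankrd46b (0.9368) and ing2 (0.9142). Over all 10 groups these stood at 0.9313, 0.6618, 0.065, 0.8074 and 0.6821. The pax7a log2 levels at p77, from 1 count in all, were set by the 0.25 added to each CPM. These correlations therefore rest largely on the step between the stages. lbh, a transcriptional cofactor gene, shared with pax7a a low level at p77, at 0.25 to 0.561 CPM against 1.58 to 3.03 CPM at p27. In Mack2, lbh averaged 44.1 CPM at p2 and 25.1 CPM at p180, so it was lower at the later stage, where pax7a was higher.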

How the data were processed

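Raw counts per gene and normalized values were deposited by the authors for all 32 libraries. Per the labels, the libraries were poly(A) selected, not strand-specific and sequenced as paired reads, so reads of overlapping genes on opposite strands cannot be told apart. Tools listed in the submitters' processing notes are STAR, Salmon 1.10.1, FastQC and DESeq2, with no role stated, and the build and annotation used for counting are not given there. The deposited normalized signal equals the count divided by 1 size factor per library, between 0.6212 and 1.343, and was used as an alternative only. Symbols and gene order come from the RefSeq annotation of fScoSco1.1, which held all 24189 identifiers, 14498 of them with a symbol.

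Counts were tested with edgeR 4.0.16 (R 4.3.3, limma 3.58.1): 1 quasi-likelihood fit per line with TMM scaling and the default low-count filter, and Benjamini-Hochberg adjustment over all genes tested, with a threshold of 0.05. Levels are CPM with TMM-scaled totals over all libraries. Intervals cover counting error only, and floors cover only that of the group without counts. Likeness used log2(CPM + 0.25). Figures were drawn with matplotlib 3.10.9.

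The members, gene lists and tests were chosen with earlier results of these data known, and 1 listed Notch symbol that matched no gene was dropped afterwards. Named genes are all measured ligands, receptors, Hes, Her and Hey genes and pax and myogenic factors that bear on a result. Some of the genes with the smallest p of each other role are also named. Of those genes, hdac1, hdac3, ncor1, mib1, mib2, ep300b, poglut3, eya2, eya4 and meox1 are not reported here. Further genes are named where they made up much of a sum or ran against a sum or a count. Of the 5 genes closest to her13 by likeness, 1 is not reported here. The fit was tested on simulated data. The alternatives were RLE scaling, no filter, DESeq2 1.42.0, the deposited normalized values, a replicate block and leaving out each library.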

Additional observations from a re-analysis of the deposited data

Results flagged for a closer look

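The change of pax7a between the stages ran in opposite directions in the lines. The log2 ratio was -4.29 for p77 against p27 in Mack1 proliferation, from summed counts because p77 held 1 count, and 2.76 for p180 against p2 in Mack2, from mean CPM, a difference of 7.05 with every library of each later stage on its side of the earlier one. This difference was not tested, and line, batch and passage cannot be told apart. The same pattern was seen, also without a test, for nfixb (-3.07 and 1.83, a difference of 4.90), cav1 (-1.75 and 2.87, 4.62), six4a (-1.91 and 0.49, 2.40), myod1 (-0.68 and 1.27, 1.95) and her6 (-0.34 and 0.78, 1.12), which were lower at the later stage in Mack1 and higher in Mack2. It was reversed for neurl1aa (1.30 and -3.82, a difference of -5.12), numbl (0.87 and -2.47, -3.34), furina (0.27 and -0.93, -1.20), cdkn1bb (0.45 and -0.32, -0.77) and foxo3b (0.13 and -0.49, -0.61). Within Mack1, her6 in lipid loading lay above proliferation at p27 (0.20) and below it at p77 (-0.36), a difference of -0.56. col5a1 in starvation lay below proliferation at p27 (-0.71) and above it at p77 (0.36), a difference of 1.07. Neither difference was tested. In all, 195 pairs of changes over 59 genes were looked at, and 13 were flagged. The share of such reversals over all genes was not computed, so nothing is read from that count. In the edgeR tests, 25.6% of all genes passed between the stages in Mack1 proliferation and 77.7% in Mack2.

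In 2 of 90 groups of 4 libraries looked at, 1 library stood far from the others, and chance flags about 1 in 20. In Mack2 p2, the highest library of fbxw7 was at 127 CPM, with the others at 113 to 114, and that of lfng at 7.92 CPM, with the others at 6.45 to 6.61.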

How the results depend on the processing

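No result changed direction under any alternative run. Of 489 results for 60 named genes outside the members, 57 lost their call in at least 1 run. Such losses numbered 169 over the runs with 1 library left out and 10 without the filter. They numbered 6 under RLE scaling, 4 under DESeq2 and 3 with the replicate block. Counts of called Notch genes kept within 1.5 times under RLE scaling, no filter and DESeq2 in all 11 comparisons. With 1 library left out, the count for p77 against p27 was 15 to 21 of 24 in proliferation, lowest without p77 replicate 2. In starvation it was 12 to 20 of 20, with 13 without p27 replicate 1 and 12 without p77 replicate 1.

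Same-numbered libraries correlated at -0.1 to 0.12 over 34 pairs, 1 of them over 0.1 and 12 best with their own number. No pairing by number was seen, which cannot show that there is none. With the replicate block the counts were 44, 41 and 31 in p27 starvation, serum reduction and lipid loading and 48, 42 and 46 in p77 starvation, lipid loading and serum reduction. Between the stages they were 24, 19, 29 and 29 in proliferation, starvation, serum reduction and lipid loading, and 49 in Mack2.

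Of member log2 ratios, heyl in p77 serum reduction was -7.16 and her13 in Mack2 2.43 under RLE scaling and with the deposited normalized values. With 1 library left out, for p77 against p27, pax7a was -4.49 to -2.14 in proliferation, -5.41 to -4.36 in starvation, -3.46 to -2.49 in serum reduction and -4.11 to -3.32 in lipid loading, heyl was -2.52 to -1.46 and -8.18 to -5.51 in the last 2 states, and her13 -2.12 to -0.89 in proliferation. Against proliferation, heyl was -7.99 to -7.27 in p27 starvation, and at p77 -7.30 to -6.64 in starvation, -7.23 to -6.47 in serum reduction and -8.38 to -5.71 in lipid loading. her13 was 5.31 to 8.34, 3.45 to 6.46 and 2.02 to 5.01 at p27, and 5.83 to 6.61, 5.67 to 6.50 and 6.17 to 6.98 at p77, in starvation, serum reduction and lipid loading.

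Depth limits pax7a in Mack1 and heyl and her13 where a group holds few counts.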

Other observations

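Of the 5 genes whose levels followed pax7a most closely over the Mack1 groups, znhit1, gps2, ankrd46b and ing2 lie on 1 chromosome of the RefSeq assembly, and pax7a lies on another. Chromosomes were looked at after that was seen. For the 507 tested genes of the chromosome that carries those 4, the median log2 change from p27 to p77 in Mack1 was between -0.44 and -0.35 in each of the 4 states. Between 37.1% and 40.8% of its genes passed the edgeR test as lower. The states share no libraries but come from the same line and stages, so they do not repeat the stage difference independently. The chromosome that carries her13, with 663 genes tested, had medians of -0.21 to -0.14 and 21.9% to 25.8% lower, and the one that carries lpp had -0.21 to -0.11 and 18% to 28.2%. The medians of the other 21 chromosomes lay between -0.04 and 0.11 in all 4 states, with 5.91% to 17.5% of genes lower. The chromosome of pax7a was among those, at 0 to 0.08, and that of heyl at -0.02 to 0.04. The cause was not tested.

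With regard to p27 only, the states were also set against each other. her13 in starvation was 3.64-fold above serum reduction and 9.76-fold above lipid loading, without overlap. pax7a in starvation was 3.27-fold above serum reduction and 2.29-fold above lipid loading, with overlapping libraries. heyl in lipid loading was at least 144-fold above starvation.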
